A study of Mus musculus with 3 samples.

Results

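Five-prime ends of odorant receptor transcripts were mapped in the olfactory epithelium of the mouse, and 5 receptors received a named promoter position on each DNA strand. They were Olfr676, Olfr1020, Olfr1290, Olfr1474 and Olfr1506, chosen by name from the authors' promoter table, where each has 2 rows of opposite strand. Their 10 positions were among 1085 in the table, and the genes were 5 of 1007 receptor gene names. In all, 12 genes had positions on both strands. The other 7 were Olfr325, Olfr406, Olfr535, Olfr566, Olfr569, Olfr874 and Olfr96.

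The labels describe 3 arrays. Stringent (1 array) carried a nested PCR product, and High Coverage (2 arrays) carried products made without nesting. All 3 came from RNA of C57/Bl6 adults aged 6 to 8 weeks, with the epithelia of 5 mice pooled per sample, reverse transcribed with degenerate receptor primers. No treatment, genotype or transgene is named in the labels. Per the file headers the inputs of High Coverage 1 and High Coverage 2 were named female and male, so array and sex cannot be told apart. The promoter table held 0 of 7 marker genes of the epithelium's cell types, so the labelled tissue was not checked against markers. With a single Stringent array, the groups were set side by side without a test. The number of arrays limits the precision.

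Odorant receptors are G protein-coupled receptors of olfactory sensory neurons, and each neuron transcribes very few of their genes. The genes stand in dense clusters on either strand, usually with the coding sequence in a single exon and short non-coding exons before it. Neighbouring genes often point in opposite directions, so whether a nearby receptor could own a position is asked for each member. RLM-RACE marks the capped 5′ end of an RNA. A tiling array does not by itself show the strand, so the strand of a position is that of the authors' table.

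For Olfr1506, 1 of the 5 genes, the 250 bases before the annotated start are shown because RefSeq gives the same letters, 250 of 250, for Olfr1565, a receptor on the opposite strand of the same cluster. Among 948 receptor promoters in the RefSeq table, 2 sequences occurred for more than 1 entry. The other was that of Olfr596 and Olfr603. The same window of Olfr1290 is shown as the other member whose annotated start precedes the start codon. Sequences are from RefSeq, build GRCm38.p6, written 5′ to 3′ on the gene's strand. Olfr1506 lies at chr2:90224472-90224721 (minus), Olfr1565 at chr2:90321972-90322221 (plus) and the outer start of Olfr1290 at chr2:111493816-111494065 (minus). These coordinates are of another build than the array files and are not comparable with the positions below. Capitals mark a match to the homeodomain-type motif TAATNA.
Olfr1506 and Olfr1565: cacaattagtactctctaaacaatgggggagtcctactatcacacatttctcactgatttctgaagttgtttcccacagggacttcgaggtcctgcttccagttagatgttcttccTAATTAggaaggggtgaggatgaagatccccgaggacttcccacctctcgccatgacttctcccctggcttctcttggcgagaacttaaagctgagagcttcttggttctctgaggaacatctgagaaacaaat
Olfr1290: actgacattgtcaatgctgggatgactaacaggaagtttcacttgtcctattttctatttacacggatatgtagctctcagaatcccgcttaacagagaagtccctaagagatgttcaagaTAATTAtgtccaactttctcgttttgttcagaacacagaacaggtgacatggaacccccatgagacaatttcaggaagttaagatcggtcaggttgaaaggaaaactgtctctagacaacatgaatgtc

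The first base of the TAATNA match stood at -134 in Olfr1506 and at -129 in Olfr1290, counted from the annotated start. The letters TAATTA read the same on both strands, so the match counts for either direction. TAATNA, searched on both strands, occurred in 63.8% of receptor promoters and in 24.3% of all promoters of the same length. The receptor promoters were also richer in A and T, with a median of 66% against 47.6% for all promoters. Whether base content accounts for the difference in shares was not tested. CCCNNGGG, the core of the Olf1/EBF site, reads alike on both strands. It occurred in 2.74% of receptor promoters and in 11.8% of all promoters. TATAAA occurred in 39.2% of receptor promoters and in 12.4% of all promoters. The part of base content in these shares was not tested either. Neither CCCNNGGG nor TATAAA was found in the windows printed. RefSeq gives Olfr1290 a second start inside the transcript of the outer one, and its window, not printed, held TATAAA on the opposite strand at -228 and a match to TAATNA at -159. The Olfr1506 window was 53.2% A and T, and the median receptor promoter was 66%. The entries for Olfr676 and Olfr1474 begin at the start codon, so their windows precede a coding sequence and are not printed. Entries of this kind were kept in the shares of receptor promoters given above. Olfr1020 is named only.

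The positions are on build mm9. Olfr676, a class I receptor of the chromosome 7 cluster, had position 112178813 on the minus strand and 112180450 on the plus strand, 1637 bp apart. Olfr1020, on chromosome 2, had 85685621 (minus) and 85687110 (plus), 1489 bp apart and the closest of the 12 pairs. Olfr1474, on chromosome 19, had 13539140 (minus) and 13543964 (plus), 4824 bp apart. In these 3 receptors the positions pointed away from each other. Olfr1290, on chromosome 2, had 111329891 (plus) and 111334082 (minus), 4191 bp apart and pointing towards each other, the only such pair of the 12. Olfr1506, on chromosome 2, had 90065309 (minus) and 90161668 (plus), which pointed away from each other across 96359 bp. The next largest distance in the 12 pairs was 5899 bp.

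Most members carried Stringent signal at 1 or both positions, and without nesting the positions ranged from among the highest scores of the array to below its median. The value given is the highest MAT score within 100 bp, where MAT scores a window of probes against the brightness that their sequences predict. The percentile that follows is the rank of that value among the 2188086 scored probes of the array. A called region is a stretch above the authors' threshold for that array, counted where it reached within 100 bp of the position. The thresholds differed in strictness between arrays. A region was present at 7 of 10 positions on Stringent, with 61.7% of all positions as background. It was present at 4 on High Coverage 1 (background 36.4%) and at 5 on High Coverage 2 (background 43.6%). All 3 shares were near the background. Regions on all 3 arrays were found at 3 positions (background 17.3%), namely the plus-strand position of Olfr1020 and both of Olfr1290. Regions on Stringent and on neither High Coverage array were found at 4 (background 28.3%), namely the minus-strand position of Olfr1020, the plus-strand position of Olfr1474 and both of Olfr1506.

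**Figure D1:**
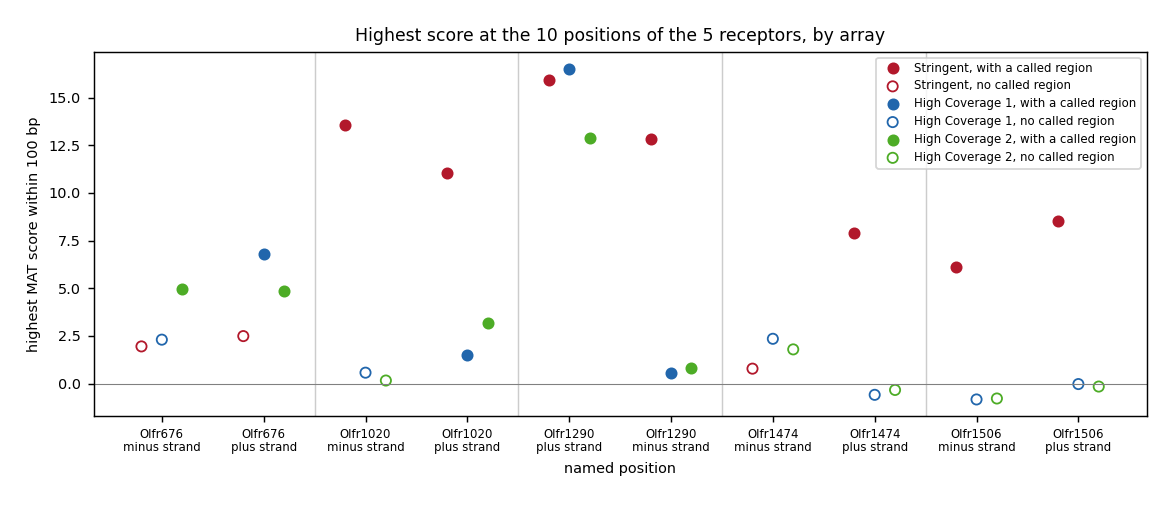
Highest MAT score (vertical axis, linear) within 100 bp of each of the 10 positions (horizontal axis), with 1 point per array, filled where a called region reached the window. Stringent has a region at both positions of Olfr1020, Olfr1290 and Olfr1506, at the plus-strand position of Olfr1474 and at neither of Olfr676.

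Olfr1020 had strong Stringent signal on both sides of a short quiet stretch. At the minus-strand position the score was 13.6 on Stringent (97.9 percentile) and 0.571 on High Coverage 1 (82.4), with 0.160 on High Coverage 2 (72.8). At the plus-strand position it was 11.03 on Stringent (96.9) and 1.51 on High Coverage 1 (91.8), with 3.15 on High Coverage 2 (95.1). Stringent had the minus-strand position higher, and both High Coverage arrays had the plus-strand position higher. Regions at the plus-strand position were called on all 3 arrays, with scores of 20.98, 4.89 and 7.28. The High Coverage regions began at 74 and 38 bp downstream, and no region spanned the position itself on those arrays. The minus-strand region, from -66 to 256 bp, was called on Stringent and on neither High Coverage array.

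Olfr1020 also had further regions in the direction of each position. From 2400 to 2958 bp downstream of the plus-strand position lay a Stringent region of score 18.2, overlapped by a High Coverage 1 region of 7.08 and a High Coverage 2 region of 10.1. Downstream of the minus-strand position 4 more Stringent regions lay up to 4136 bp away. The 2 farthest, with scores of 21.8 and 15.2, were overlapped on High Coverage 1 and not on High Coverage 2. The nearer ones, at 1107 to 1353 bp and 2067 to 2315 bp, overlapped no High Coverage region, although High Coverage 1 had one of 3.89 starting at 2320 bp. High Coverage 2 had no region within 10000 bp downstream of the minus-strand position.

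Olfr1290 had the highest scores of the 10 positions at its plus-strand position. They were 15.9 on Stringent (98.8 percentile) and 16.5 on High Coverage 1 (99.7), with 12.9 on High Coverage 2 (99.3). The Stringent and High Coverage 1 regions both ran from -40 to 503 bp, and the High Coverage 2 region ran from -35 to 503 bp. The 3 arrays therefore placed the same block of signal within 5 bp. At the minus-strand position the scores were 12.8 on Stringent (97.6) and 0.565 on High Coverage 1 (82.3), with 0.791 on High Coverage 2 (83.6).

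The minus-strand position of Olfr1290 counted as having a region on all 3 arrays, but the regions lay on different sides. On Stringent it ran from -34 to 321 bp, downstream, and adjoined another of score 15.8 from 322 to 588 bp. On High Coverage 1 it ran from -270 to -84 bp and on High Coverage 2 from -270 to -89 bp, both upstream. With the window narrowed to 50 bp both High Coverage calls were gone. The RefSeq strand of Olfr1290 is minus, so the position with signal on all 3 arrays is on the strand opposite to the gene.

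Olfr1474 had a Stringent start at its plus-strand position and no clear start at the other. At the plus-strand position the scores were 7.88 on Stringent (95.9 percentile) and -0.591 on High Coverage 1 (44.9), with -0.335 on High Coverage 2 (57.9). A Stringent region of score 14.1 ran from -56 to 291 bp, and others followed at 305 to 751 bp and at 1384 to 1918 bp. The last of these, with a score of 13.4, overlapped a High Coverage 1 region of 5.87 and a High Coverage 2 region of 9.72. High Coverage 2 also had a region of 3.82 from 115 to 254 bp, just outside the window of 100 bp, which counted when the window was 250 bp.

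At the minus-strand position of Olfr1474 the scores were 0.782 on Stringent (90.2) and 2.35 on High Coverage 1 (95.05), with 1.79 on High Coverage 2 (91.3). No array had a region there, which held for 18.8% of all positions. The mean score was lower downstream than upstream on every array, at -1.11 against -0.074 on Stringent. The nearest Stringent region in its direction lay at 954 to 1471 bp, with a score of 15.3. High Coverage 1 overlapped it with a score of 5.09, and High Coverage 2 did not.

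Olfr676 was weak on the nested product. At the minus-strand position the scores were 1.95 on Stringent (92.8 percentile) and 2.30 on High Coverage 1 (94.9), with 4.96 on High Coverage 2 (96.8). At the plus-strand position they were 2.49 on Stringent (93.3) and 6.80 on High Coverage 1 (98.5), with 4.87 on High Coverage 2 (96.8). Stringent had no region at either position, and its nearest began 4533 bp downstream of the minus-strand position. A region stood at each position in the High Coverage 2 data, and at the plus-strand position in the High Coverage 1 data. One High Coverage 1 region, at 206 to 369 bp from the minus-strand position, was counted with a window of 250 bp. The RefSeq strand of Olfr676 is plus, and the 2 positions were within 0.1 of each other on High Coverage 2.

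**Figure D2:**
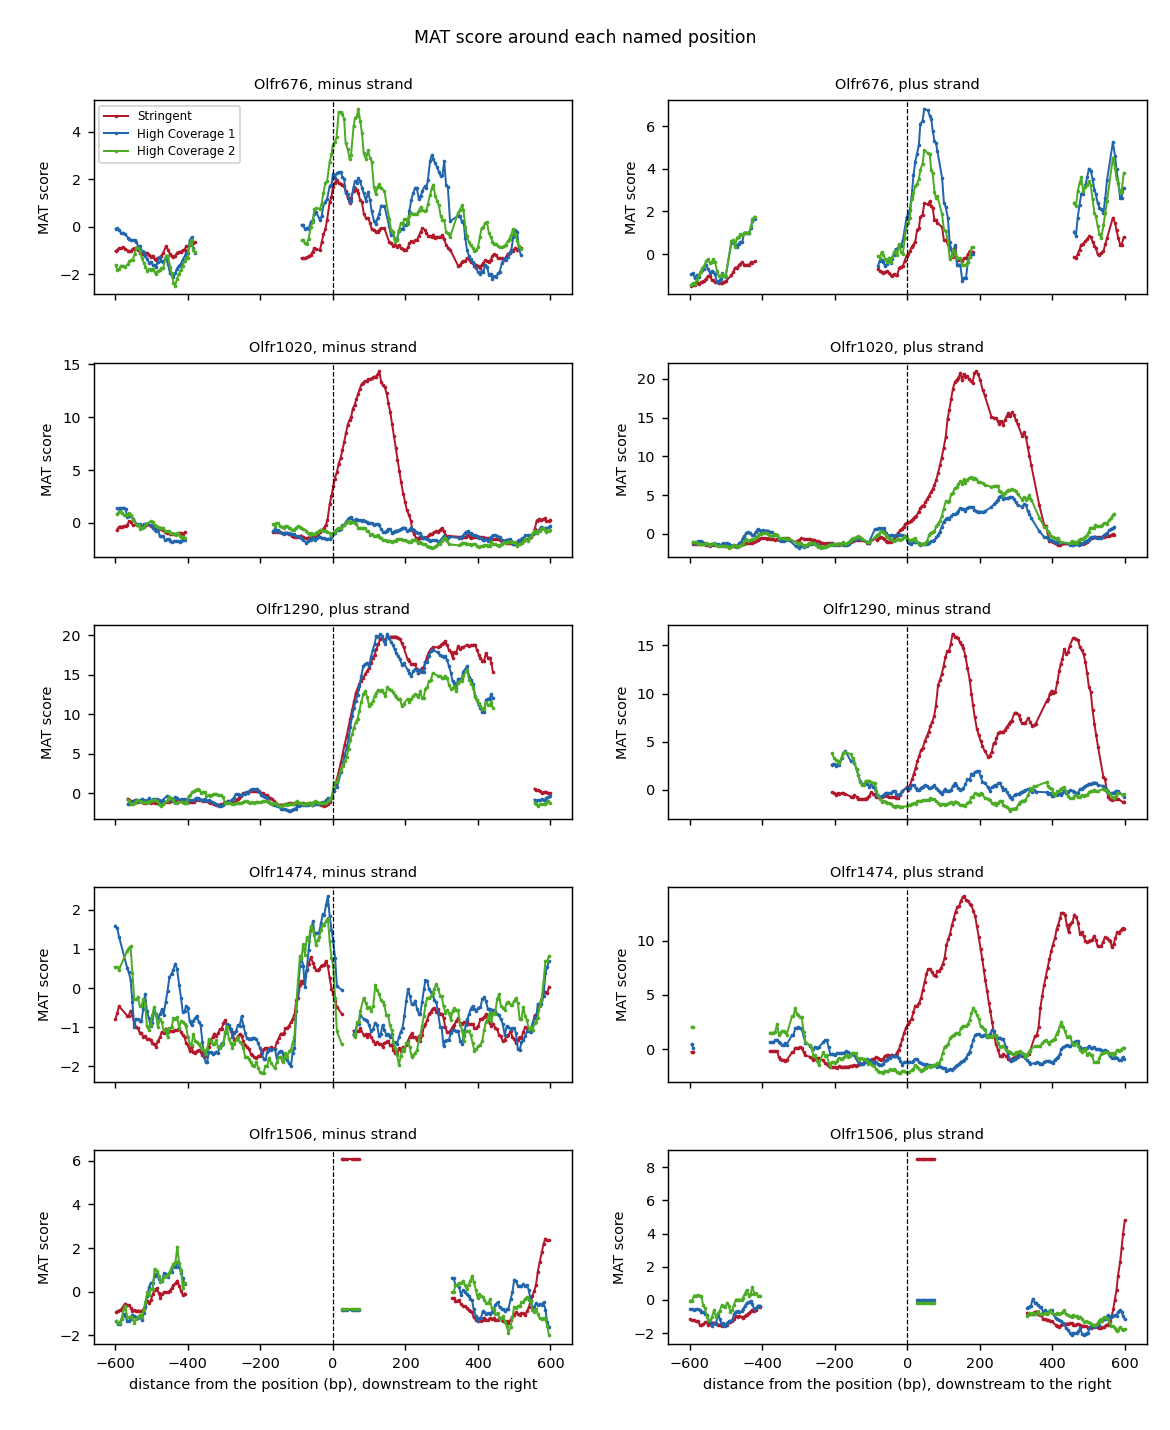
MAT score (vertical axis, scaled per panel) by distance in bp from each position, turned so that downstream is to the right, with 1 line per array and breaks where no probe lay for over 30 bp. The Olfr1290 plus-strand panel shows all 3 arrays rising at the position. In the Olfr1020 minus-strand panel Stringent rises far more than the others. Mean scores over 150 bp downstream and upstream there were 10.9 and -0.816 on Stringent. They were -0.140 and -1.33 on High Coverage 1, and -0.674 and -0.670 on High Coverage 2.

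A step to a higher score downstream was no more common at the members than over all positions. Over the positions with at least 5 scored probes on each side, the mean score was higher in the 150 bp after the position than in the 150 bp before it at 7 of 8 on Stringent (background 95.1%). This held at 5 of 8 on High Coverage 1 (background 70.5%) and at 5 of 8 on High Coverage 2 (background 74.9%). All 3 shares were below the background. The step on Stringent was 12.6 against -1.29 at the plus-strand position of Olfr1290 and 10.9 against -0.816 at the minus-strand position of Olfr1020. In Olfr676, which had no Stringent region, it was 0.913 against -0.633 at the minus-strand position. The Stringent position without such a step was the minus-strand position of Olfr1474. Both Olfr1506 positions had 0 probes upstream and could not be counted.

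The stretch between positions that pointed away from each other was quiet for the close pairs. Between those of Olfr676, leaving out 100 bp at each end, the highest score was -0.238 on Stringent and 1.84 and 1.95 on the High Coverage arrays, and no region was called on any array. Between those of Olfr1020 the highest scores were 0.173, 1.45 and 1.16, again with no region. Between those of Olfr1474 Stringent reached 1.46 with no region, High Coverage 1 reached 3.62 with 1 region and High Coverage 2 reached 3.81 with 3 regions. A region of 3.62 on High Coverage 1 and one of 3.68 on High Coverage 2 overlapped near the middle of that stretch. In these 3 genes the nested product thus left the space between the positions without a call.

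The positions of Olfr1290 face each other, so the stretch between them lies downstream of both. The share of its probes above the authors' threshold was 36.7% for Stringent and 18.0% and 15.3% for the High Coverage arrays. With 100 bp left out at each end, these probes include most of the regions called at the positions. On Stringent those regions reached 503 bp from the plus-strand position and, with the adjoining one, 588 bp from the minus-strand position. Over all scored probes, wherever they lie, these shares were 6.66%, 4.52% and 5.18%. A region at 1359 to 1719 bp from the plus-strand position scored 16.9 on Stringent and overlapped regions of 5.06 and 3.04 on the High Coverage arrays. Between the Olfr1506 positions lay 18 regions of Stringent, 24 of High Coverage 1 and 21 of High Coverage 2. Named positions of Olfr142, Olfr1271 and Olfr1272, all on the minus strand, lie in that stretch.

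Regions between the 2 positions were found for 2 of 5 members on Stringent, with 22.7% of the 22 other genes with 2 positions as background. The Stringent background came from same-strand pairs alone (Olfr1026, Olfr1223, Olfr228, Olfr75-ps1 and Olfr78). No other opposite-strand pair had a Stringent region between its positions, so a quiet stretch is not particular to the members. On High Coverage 1 the count was 3 of 5 (background 59.1%) and on High Coverage 2 it was 3 of 5 (background 68.2%). With so few genes these counts only describe the members.

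**Figure D3:**
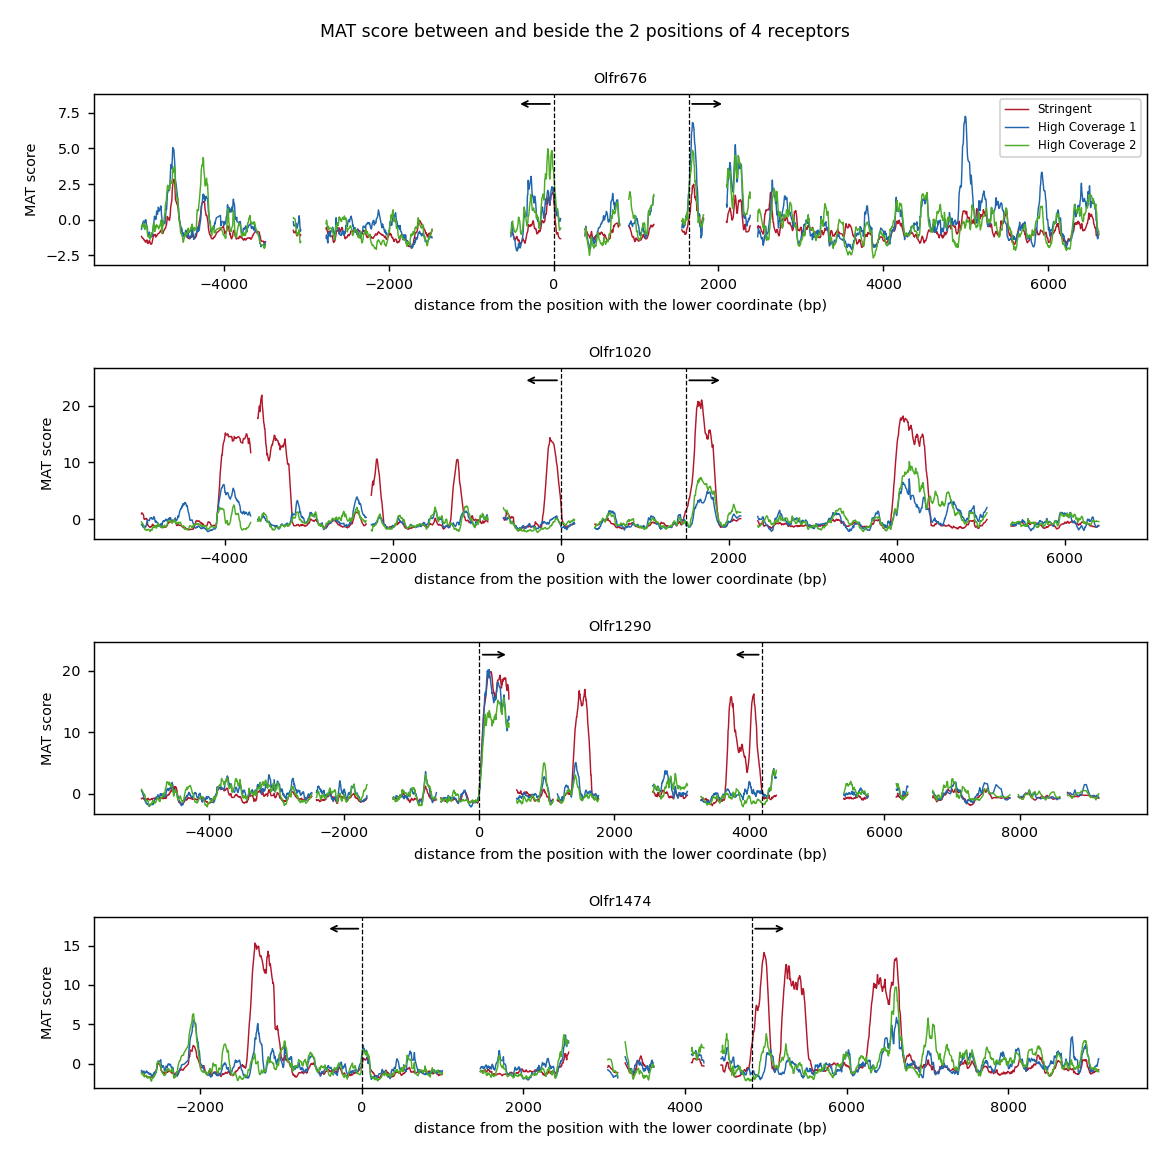
MAT score (vertical axis, scaled per panel) of 4 receptors by distance in bp from the position with the lower coordinate, with 1 line per array, dashed lines at the 2 positions and arrows in the direction of each strand. Leaving out 100 bp at each end, the stretch between the positions stays below 2 on every array in Olfr676 and Olfr1020. In Olfr1290 it reaches 20.0 on Stringent, 150 bp from the plus-strand position and inside the region called there.

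The 2 positions of Olfr1506 carried similar patterns in mirror image on Stringent. At the minus-strand position the score was 6.10 on Stringent (95.3 percentile) and -0.834 on High Coverage 1 (32.8), with -0.783 on High Coverage 2 (38.7). At the plus-strand position it was 8.52 on Stringent (96.1) and -0.0266 on High Coverage 1 (68.5), with -0.157 on High Coverage 2 (64.1). Stringent was somewhat above its median over all scored positions at both, and both High Coverage arrays were below a score of 0 at both.

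Of the Stringent regions downstream of each Olfr1506 position, 3 lay at matching distances. The region at the position ran from -38 to 134 bp on the minus strand and from -35 to 137 bp on the plus strand. The next ran from 539 to 900 bp with a score of 18.4 and from 529 to 914 bp with a score of 18.8. The last of the 3 ran from 2565 to 3120 bp with a score of 17.6 and from 2567 to 3115 bp with a score of 20.5. The edges of these 3 regions differed by at most 14 bp between the strands. At the position itself the only probes lay at 24 to 72 bp (minus) and 27 to 75 bp (plus). The edges of that region therefore follow the placing of probes, and their match says nothing about the signal. Weaker Stringent regions lay between them without a counterpart. They were at 1145 to 1303 bp (score 3.06) and 1327 to 1528 bp (3.36) on the minus strand, and at 1698 to 1874 bp (3.33) on the plus strand. On High Coverage 1 one pair matched, from 2597 to 3120 bp with 16.3 and from 2587 to 3125 bp with 22.8. Its regions at 646 to 860 bp (5.05) and 3135 to 3360 bp (4.24) on the plus strand had no counterpart on the minus strand. The High Coverage 2 regions were cut differently on the 2 strands, with edges of overlapping regions up to 394 bp apart.

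In bins of 50 bp up to 3500 bp downstream, the scores of the 2 Olfr1506 positions correlated over 66 bins with Pearson's r = 0.969 on Stringent. It was 0.896 and 0.828 on the High Coverage arrays. The same measure lay between -0.338 and 0.620 for the other 4 members over the 3 arrays. Bins share an array and neighbouring probes, so r is a description. The placing of probes was mirrored as well. Between 409 bp upstream and 329 bp downstream of the minus-strand position, probes lay at 24 to 72 bp alone, 9 in all, with the same score for all. At the plus-strand position 11 probes lay at 27 to 75 bp. Each of these levels therefore stands for a single window.

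**Figure D4:**
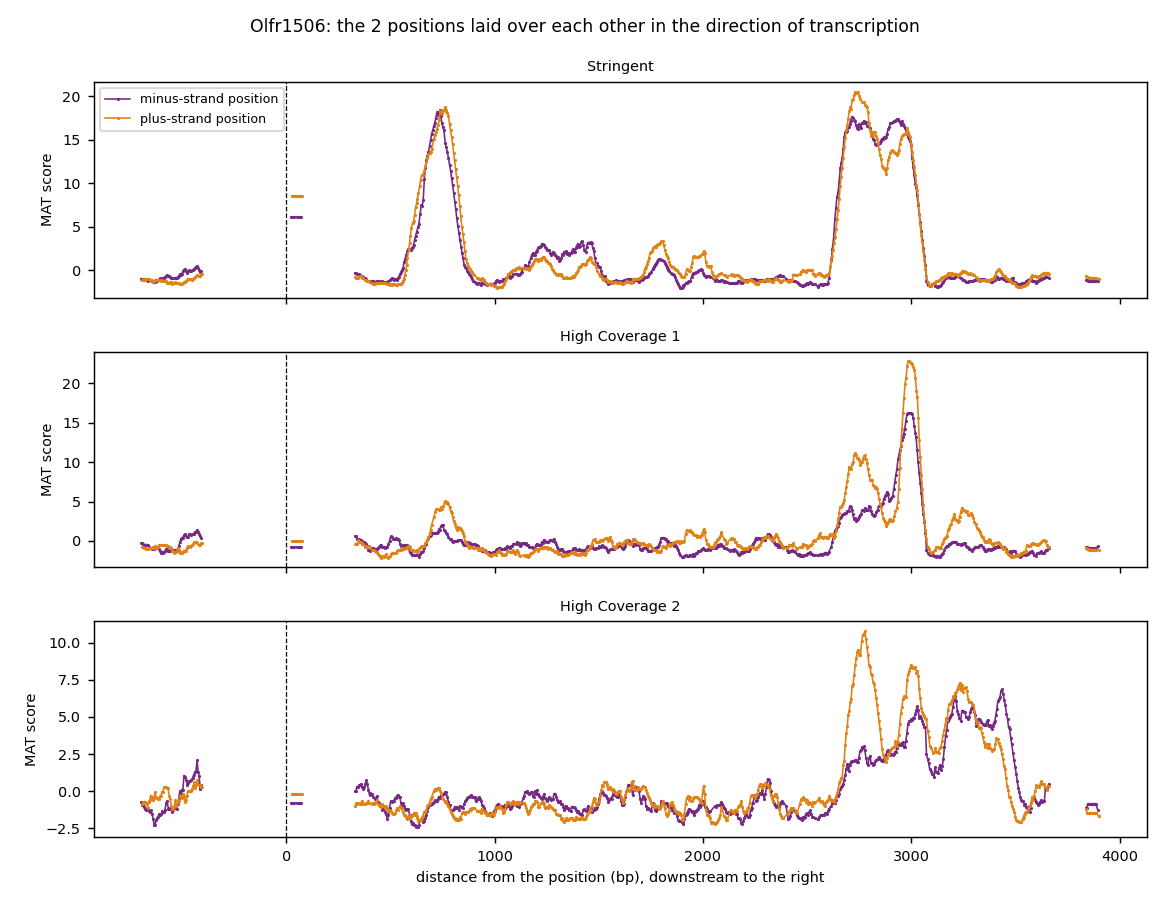
MAT score (vertical axis, scaled per panel) by distance in bp from the 2 Olfr1506 positions, each turned so that downstream is to the right, with 1 panel per array. On Stringent the lines of both strands peak at 539 to 900 bp and at 2565 to 3120 bp from the minus-strand position and at nearly the same distances from the plus-strand position.

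Set against the mean of the High Coverage arrays, 6 of the 10 positions stood higher on Stringent, as did 697 of 1079 scored positions in the whole table, a similar share. The median difference was 9.07 percentile points, and over all scored positions it was 4.03. A limit of 34.3 points, the 95th percentile of the absolute difference between the High Coverage arrays over all positions, was exceeded at 2 member positions (background 8.8%). They were the minus-strand position of Olfr1506, at 59.5 points, and the plus-strand position of Olfr1474, at 44.5 points. With a window of 500 bp these were 3.59 and 3.05 points, and the cause was not tested. Within 100 bp the Olfr1506 value rests on 9 probes that share 1 Stringent score. The median over all scored positions was 37 probes, so its value and the limit are not fully like for like. With the mean score in place of the highest, the minus-strand positions of Olfr1020 and Olfr1290 went from 20.3 and 14.6 points to 51.2 and 47.3, and the plus-strand position of Olfr1020 from 3.50 to 34.4. The limit was not recomputed for the mean score. No member stood lower by more than the limit (background 1.2%). The lowest was -4.35 points at the plus-strand position of Olfr676, and its High Coverage arrays differed there by 1.76.

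Over the 6 percentiles of a gene's 2 positions, the gene most like Olfr676 among the other opposite-strand genes was Olfr535, with a mean absolute difference of 2.23 points. Olfr1020 and Olfr1290 were most like each other, at 4.19 points. Olfr1474 was nearest to Olfr406 at 15.9 points, and Olfr1506 was nearest to Olfr874 at 17.9 points.

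For 4 of the 5 members a protein-coding receptor without a named position stood nearby, whatever its strand or direction. One on the strand of a position and in its direction was found for the minus-strand position of Olfr676 and the plus-strand position of Olfr1506. Direction here means before or after the member gene in the reference order, not before or after the named position. By that measure there was none for Olfr1290. The place of its plus-strand neighbours Olfr1288 and Olfr1289 relative to the plus-strand position was not analysed. For Olfr1020 the strands of the neighbours were not given. Gene order alone does not settle which gene each position belongs to. Which strand a gene is on was read from RefSeq, and it equalled the strand of the named position for 818 of 820 genes with 1 position. It was plus for Olfr676 and Olfr1474 and minus for Olfr1290 and Olfr1506, and the table used gave none for Olfr1020. Neighbours were taken in the reference order of genes, between the receptors of the nearest named positions on each side. The sources used here do not say how the authors gave names to positions.

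For Olfr676 the protein-coding receptor Olfr675 stands directly before it, is on the minus strand and has no named position. It lies in the direction in which the minus-strand position points, whose nearest other named position on that side is that of Olfr672, 28184 bp away. For Olfr1506 the plus-strand position lies between the named positions of Olfr1272, 38873 bp before it, and Olfr1274, 76483 bp after it. The receptors without a named position there are a transcribed pseudogene, Olfr1273-ps, and Olfr1565, which is on the plus strand and holds the promoter sequence printed above. A probe in a stretch that both genes share would read RNA from either, and which of them gave the signal was not tested.

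For Olfr1290, Olfr1288 and Olfr1289 stand directly before it on the plus strand without a named position. Whether they lie before or after the plus-strand position was not analysed here, since no annotation of mm9 was used. For Olfr1474, the receptor before it is Olfr1473-ps1, a pseudogene without a named position, and the minus-strand receptor Olfr1472 has its own, 8559 bp from that of Olfr1474. For Olfr1020, Olfr1019 stands before it and Olfr1022 after it among the protein-coding receptors without a named position, and neither has a strand in the table used.

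An unnamed receptor lay between the flanking named genes for 5 of 5 members (background 47.7% of genes with 1 position). An unnamed protein-coding receptor did so for 4 of 5 (background 19.6%). A member counted if either of its 2 positions had one, and a background gene has 1 position, so these shares are not like for like. For Olfr1506 both counts rest on the plus-strand position alone. Of the other 7 opposite-strand genes, 7 had an unnamed receptor and 3 an unnamed protein-coding one. Of the 15 genes with both positions on the same strand the numbers were 13 and 3. No test was made of these counts, which come from neighbour order and not from the arrays.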

How the data were processed

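RLM-RACE products on 3 tiling arrays were read from the deposited files. The score files hold a MAT score per probe, made by the authors from 1 array each without a control array, and scores are not scaled between arrays. MAT's settings, per the file headers, were BandWidth 50, MaxGap 30 and MinProbe 5. Regions were called by the authors per array at scores of 2.52, 2.53 and 2.99, with a false discovery rate of 0%, per the file headers, and a region's score is the authors' own. Positions are given on mm9, the build the submitters' processing notes name.

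A score of exactly 0 on all arrays (5.42% of 2313448 probes) was left out. Windows of 100 bp, flanks of 150 bp and percentiles were computed here. All 5 members were named, with neighbours and like genes by rule. Members and lists were chosen with earlier results of these data known. RefSeq names (5 of 5 matched), strands and promoters are of GRCm38.p6. The region overlap and the comparison of downstream with upstream were run on simulated data with planted regions and signal. This checks the code alone, and the other steps were not checked in this way. Python 3.11.15, numpy 2.4.6, pandas 2.3.3 and matplotlib 3.10.9 were used.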

Additional observations from a re-analysis of the deposited data

How the results depend on the processing

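Of 49 recomputed counts and medians, 41 stayed within 1.5 times the count, or within the spread of the High Coverage arrays for the median, 8 moved and 0 changed sign. On High Coverage 1 the count of positions with a region went from 4 to 2 when the region had to span the position, with a window of 50 bp, or when it had to cover 50 bp of the window. On High Coverage 2 it went from 5 to 3 when the region had to span the position. The calls lost were at the plus-strand position of Olfr1020 and the minus-strand position of Olfr1290, whose regions lie beside the position. The median Stringent minus High Coverage difference, 9.07 percentile points, was 24.4 with a window of 50 bp, 2.08 with 500 bp and 32.1 with the mean score in the window. On a median and MAD scale it was 18.3 in units of the MAD. Without High Coverage replicate 1 or 2 it was 7.92 and 10.2. Of 180 region calls at single positions 165 were the same, and of 70 differences at single positions 44 were. The 44 include every difference recomputed without a High Coverage replicate. Those had to count as the same, because the spread allowed was computed from them. The median and MAD scale was always counted as moved, so the label of neither setting bears on stability. The difference at the plus-strand position of Olfr1290, -0.680, changed sign, to 0.0749 with a window of 500 bp and 14.1 on the median and MAD scale. No other difference did. No paired analysis was possible because Stringent has 1 array and carries no replicate number. Stringent values have no replicate check.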
